A study of Mus musculus with 12 samples.

Results

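Pdyn, Tac2 and Tac1, which encode peptide precursors, and Tacr3 and Tacr1, which encode tachykinin receptors, were followed across bulk RNA sequencing of the microdissected arcuate nucleus (ARC) of female mice. All 5 genes, chosen by name, had a row among the 16640 genes of the table, and all 5 passed the filter on low values. The groups were control females with loxP-flanked Esr1 (Ctrl, Esr1fl/fl) on chow (n = 3), mutants that also carry Nkx2-1-driven Cre (NkxCre) on chow (n = 4), controls on a high-fat diet (HFD, n = 2) and libraries labelled NkxCre on HFD (n = 3). All animals were 27 weeks old, and the diet lasted 17 weeks. Nkx2-1 is active in much of the developing ventral hypothalamus, so the Cre is not restricted to the cells that express these peptides, and the floxed allele is present in controls as well. No source says that the libraries of a group came from separate animals, so p-values measure only the spread between these libraries.

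Neurons of the ARC that make kisspeptin, neurokinin B and dynorphin are known as KNDy neurons, and they express oestrogen receptor-alpha. Tac2 encodes the precursor of neurokinin B, an excitatory tachykinin whose preferred receptor is the product of Tacr3. Pdyn encodes prodynorphin, from which dynorphins are cut, and these act through the inhibitory kappa opioid receptor (Oprk1). Signalling between KNDy neurons through this pair of peptides is held to pace the release of gonadotropin-releasing hormone, and oestradiol lowers Tac2 and Pdyn in these cells. Tac1 encodes substance P and neurokinin A, and the receptor encoded by Tacr1 prefers substance P. Kiss1 and Tac4 were not analysed here.

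The peptides themselves are short stretches of larger precursors. Coding stretches are shown because they hold the peptides, or for dynorphin A and dynorphin B their first 10 codons only, that Tac2, Tac1 and Pdyn encode. They were read from GENCODE M21 on GRCm38, and each lies within 1 exon. In Tac2 and Tac1 the capitals mark the codons of the carboxy-terminal motif common to tachykinins, and in Pdyn they mark the codons of the opioid core with which each printed peptide opens.
Tac2, neurokinin B, exon 6, plus strand, chr10:127729116-127729145: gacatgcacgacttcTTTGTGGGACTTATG
Tac1, substance P, exon 3, plus strand, chr6:7556732-7556764: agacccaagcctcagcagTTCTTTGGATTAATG
Tac1, neurokinin A, exon 6, plus strand, chr6:7559101-7559130: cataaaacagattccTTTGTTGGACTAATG
Pdyn, dynorphin A, exon 4, minus strand, chr2:129688115-129688144: TATGGGGGCTTCCTGcggcgcattcgcccc
Pdyn, dynorphin B, exon 4, minus strand, chr2:129688058-129688087: TATGGTGGTTTCCTGcggcgtcagttcaag
Substance P and neurokinin A lie in different exons of Tac1, and the gene-level values below do not separate transcripts that hold or lack either one. Dynorphin A and dynorphin B share 1 exon of Pdyn.

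The member genes are protein coding and lie apart from one another on GRCm38. Pdyn (ENSMUSG00000027400) is on the minus strand of chromosome 2, from 129686565 to 129699844. Tac2 (ENSMUSG00000025400) is on the plus strand of chromosome 10, from 127724478 to 127731768, and Tac1 (ENSMUSG00000061762) on the plus strand of chromosome 6, from 7554879 to 7565834. Tacr3 (ENSMUSG00000028172) is on the plus strand of chromosome 3, from 134829007 to 134934579, and Tacr1 (ENSMUSG00000030043) on the plus strand of chromosome 6, from 82402334 to 82560104. No other annotated gene overlaps any of them.

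Values are an abundance signal per gene, normalised by the authors for gene length and depth. It lies near the scale of a TPM (transcripts scaled to a fixed library total), but column totals ran from 922172 to 1254999, and the sequencing depth behind each value is unknown. The number of genes listed at 0 ran from 201 to 1768, the latter in mutant chow replicate 3. Esr1, the deleted gene, was 17.8, 7.29 and 19.8 in control chow libraries and 6.05, 3.15, 1.93 and 1.65 in mutant chow libraries, so the genotypes separated on chow. On HFD it was 15.3 and 22.4 in controls and 10.7, 16.6 and 11.9 in the libraries labelled mutant. Esr1 in these 3 libraries overlapped the controls, which limits any direction read from this group as an effect of genotype. It also lay above all mutant chow libraries. The diet comparison in mutants may therefore set libraries of unlike Esr1 deletion side by side, which was not tested. Arcuate identity was checked with Agrp, Npy, Pomc, Cartpt, Ghrh and Th, which were all detected in all 12 libraries. Agrp ranged from 65.9 to 787 and Pomc from 1009 to 4249.

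**Figure D1:**
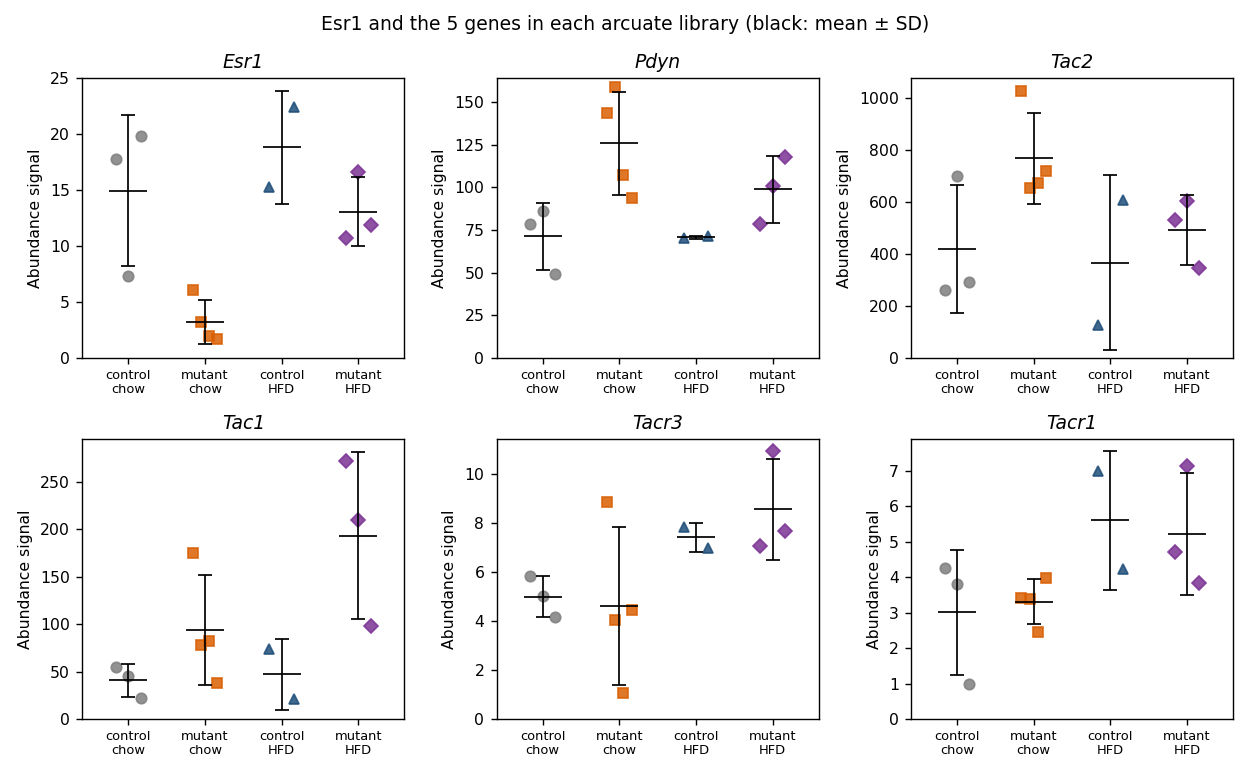
Abundance signal (vertical axes, linear from 0) of Esr1, Pdyn, Tac2, Tac1, Tacr3 and Tacr1 in each of the 12 libraries, grouped by genotype and diet along the horizontal axis, with black bars for mean ± SD. Pdyn in the 4 mutant chow libraries lies above all control libraries, and Esr1 in the libraries labelled mutant HFD lies from 10.7 to 16.6.

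The 3 precursor genes were far more abundant than the 2 receptor genes. On the length-normalised signal scale Tac2 was above Pdyn and above Tac1 in 12 of 12 libraries, and in control chow its mean exceeded that of 97.9% of all genes in the table. Pdyn exceeded Tac1 in 8 of 12 libraries, so this neighbouring pair did not keep its order. Tac1 exceeded Tacr3 in 12 of 12 libraries. Tacr3 exceeded Tacr1 in 11 of 12, the exception being mutant chow replicate 3. In control chow the means of Tacr3 and Tacr1 were above those of 27.5% and 21.1% of genes.

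Pdyn, the dynorphin precursor, had a higher signal in the mutant libraries on chow, without passing the adjusted test. The 3 control chow libraries read 78.7, 86.1 and 49.0, and the 4 mutant chow libraries read 144, 159, 107 and 94.0. Each mutant value lay above each control value. Controls averaged 71.3 ± 19.6 (SD, n = 3), whereas mutants averaged 126 ± 30.3 (SD, n = 4). The log2 fold change was 0.82 ± 0.24 (SE), with an unadjusted p of 0.0044 and a Benjamini-Hochberg adjusted p of 0.956 by limma, which did not pass the threshold of 0.05. Pdyn was the 1 of the 5 genes with an unadjusted p under 0.05 in this comparison, against a background of 4.34% of the 15801 genes tested, and the 1 whose groups did not overlap with mutants higher, against a background of 2.54%. At the adjusted threshold 0 of the 5 genes were called, against a background of 0.019%. In a bulk sample, fewer cells of a type and less RNA per cell cannot be told apart, and this holds for each difference given here.

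Tac2, the neurokinin B precursor, varied widely among controls. It was 260, 700 and 289 in control chow libraries and 1026, 653, 670 and 716 in mutant chow libraries. Control chow replicate 2 alone reached the level of the mutants, so the groups overlapped. The log2 fold change was 1.01 ± 0.47 (SE, limma, adjusted p = 0.982, unadjusted p = 0.052). Without control chow replicate 2 it was 1.45 (limma, unadjusted p = 0.010, adjusted p = 0.9997), and without mutant chow replicate 1, the highest library, it was 0.86 (limma, unadjusted p = 0.119).

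Tac1, the precursor of substance P and neurokinin A, was 54.8, 45.1 and 21.8 in control chow and 175, 78.5, 82.5 and 38.0 in mutant chow. Mutant chow replicate 4 fell within the control range, and the other 3 mutant libraries lay above it. The log2 fold change was 1.08 ± 0.55 (SE, limma, adjusted p = 0.982, unadjusted p = 0.071). It was 0.70 without control chow replicate 3 and 0.71 without mutant chow replicate 1.

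Neither receptor gene separated the genotypes on chow. Tacr3, the neurokinin B receptor gene, was 5.82, 5.01 and 4.17 in controls and 8.86, 4.06, 1.05 and 4.44 in mutants. The mutant libraries thus held both the highest and the lowest value of this comparison. Its log2 fold change was -0.30 ± 0.43 (SE, 95% interval -1.24 to 0.65, limma), and 0.12 without mutant chow replicate 3, the library with 1768 genes at 0. Tacr1 was 4.25, 3.80 and 1.00 in controls and 3.43, 3.39, 2.46 and 3.97 in mutants. Its log2 fold change was 0.21 ± 0.38 (SE, 95% interval -0.61 to 1.04, limma), and -0.23 without control chow replicate 3. The intervals for both receptors include changes of either sign.

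**Figure D2:**
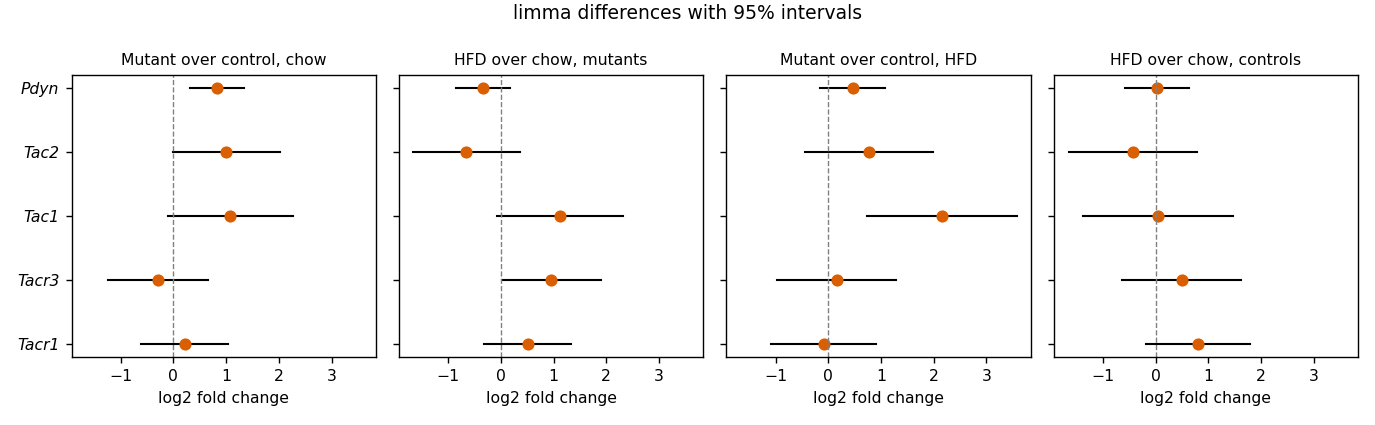
limma log2 fold changes (points, horizontal axes) with 95% intervals (lines) of the 5 genes in 4 comparisons, 1 per panel. The intervals of Pdyn on chow (0.31 to 1.34), Tac1 on HFD (0.74 to 3.58) and Tacr3 between the diets in mutants (0.01 to 1.90) exclude 0 before adjustment, and 0 of the 5 genes passed the adjusted threshold in any panel.

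Markers of the ventromedial nucleus, which borders the ARC and in which Tac1 and Pdyn neurons are also found, had higher fitted means in mutants. On chow 4 of 4 markers (Nr5a1, Fezf1, Adcyap1, Nptx2) had a higher fitted mean in mutants, with a median log2 fold change of 1.21 against 0.01 over all genes, and 2 of 4 had an unadjusted p under 0.05 by limma, against the background of 4.34%. Their summed signal ran from 41.3 to 96.2 in control chow and from 81.6 to 217 in mutant chow. On HFD 4 of 4 again had a higher fitted mean, with a median log2 fold change of 0.47, but the groups overlapped. Their summed signal ran from 54.0 to 165 in controls and from 110 to 153 in the libraries labelled mutant. The mean log2 level of the markers was 5.17 in control HFD replicate 1 and 2.64 in replicate 2. In the libraries labelled mutant it was 4.82, 4.53 and 4.51, so the higher fitted means rest on control HFD replicate 2. Fezf1, a defining transcription factor of the ventromedial nucleus, was 10.3, 2.59 and 0.43 in control chow, 16.6, 30.8, 10.3 and 7.25 in mutant chow, 29.9 and 0.44 in control HFD and 24.9, 18.1 and 21.8 in the group labelled mutant HFD. The lowest values came from control chow replicate 3 and control HFD replicate 2, the libraries in which Tac1 was also lowest, at 21.8 and 20.5. None of the 4 markers was at 0 in any library.

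Markers of some other cell types and regions also had higher fitted means in mutants on chow, and others did not. A higher fitted mean held for 4 of 4 suprachiasmatic, 3 of 4 neuron, 2 of 4 astrocyte, 1 of 3 endothelium and 0 of 3 tanycyte markers. It also held for 2 of 3 magnocellular and paraventricular markers tested (median log2 fold change 1.01) and 2 of 2 lateral hypothalamus markers (median 0.54). Of the markers of the pars tuberalis and pituitary, 1 of 3 was higher. None of the markers of these 3 lists had an unadjusted p under 0.05 on chow (limma). For microglia this held for 4 of 4 markers (Cx3cr1, P2ry12, Tmem119, Csf1r), with a median log2 fold change of 0.46, and 2 of 4 (Tmem119, Csf1r) had an unadjusted p under 0.05 by limma and groups without overlap, against backgrounds of 4.34% and 2.54%. Their summed signal ran from 89.9 to 90.2 in control chow and from 102 to 177 in mutant chow. For oligodendrocytes 4 of 4 were higher, with a median of 0.66 and 0 of 4 by unadjusted p, and the summed signal overlapped. Of 4 striatum markers 2 were higher and 2 lower, and Drd1, a dopamine receptor gene, had the 1 unadjusted call, at 0.31 to 4.29 in control chow and 3.98 to 15.4 in mutant chow. With the microglia marker mean as a covariate, chosen after seeing the data, the log2 fold change on chow was 0.81 for Pdyn, 1.49 for Tac2 and 1.80 for Tac1 (limma, unadjusted p = 0.036, 0.041 and 0.030), and that of Tacr3 was 0.69 in place of -0.30 (limma, unadjusted p = 0.162).

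The members differed in how they moved with the ventromedial markers. With the mean log2 level of these 4 markers as a covariate, a fit chosen after seeing the data, the log2 fold change of Tac1 on chow was 0.18 in place of 1.08 (limma, unadjusted p = 0.712), and that of Pdyn was 0.59 in place of 0.82 (limma, unadjusted p = 0.048). That of Tac2 was 1.59 in place of 1.01 (limma, unadjusted p = 0.0075, adjusted p = 0.893). Across the 12 libraries Tac1 correlated with the marker mean, with Pearson's r = 0.74 (permutation p = 0.0058, adjusted p = 0.106 over 20 pairs) and Spearman's rho = 0.70 (permutation p = 0.014, adjusted p = 0.094). Without control chow replicate 3 and control HFD replicate 2, r was 0.45, so the relation rests in part on these libraries. For Pdyn r was 0.67 (permutation p = 0.017, adjusted p = 0.106) and rho 0.47 (permutation p = 0.129, adjusted p = 0.322), and r was 0.38 without the same libraries. For Tac2 r was -0.04 (permutation p = 0.901) and rho -0.08 (permutation p = 0.819). After subtracting group means, r with the ventromedial marker mean was 0.72 for Tac1, 0.48 for Pdyn and -0.56 for Tac2, as a description without a test. The relation of Tac1 was not particular to ventromedial markers. With the mean of 4 general neuron markers (Snap25, Syt1, Rbfox3, Stmn2) Tac1 had r = 0.67 (permutation p = 0.019, adjusted p = 0.106). There rho was 0.70 (permutation p = 0.014, adjusted p = 0.094), and r was 0.86 without control HFD replicate 1 and control chow replicate 2. Pdyn against the magnocellular marker mean had r = 0.33 (permutation p = 0.295, adjusted p = 0.481). Without control chow replicate 1 and mutant chow replicate 1, that r was 0.78.

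Tac2 was set instead against the 6 arcuate neuron markers. Here r was 0.64 (permutation p = 0.027, adjusted p = 0.106 over the same 20 pairs) and rho 0.55 (permutation p = 0.071, adjusted p = 0.284). Without control HFD replicate 1 and control chow replicate 2, r was 0.23, so this relation rests on those 2 libraries. Control HFD replicate 1 had the lowest arcuate marker mean, 7.59 on the log2 scale, and the lowest Tac2 signal, 127. The fitted means of the arcuate markers themselves were higher in mutants on chow for 4 of 6 and lower for 2 of 6, with a median log2 fold change of 0.09. The part of any marker group in the genotype differences was not tested beyond these fits.

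**Figure D3:**
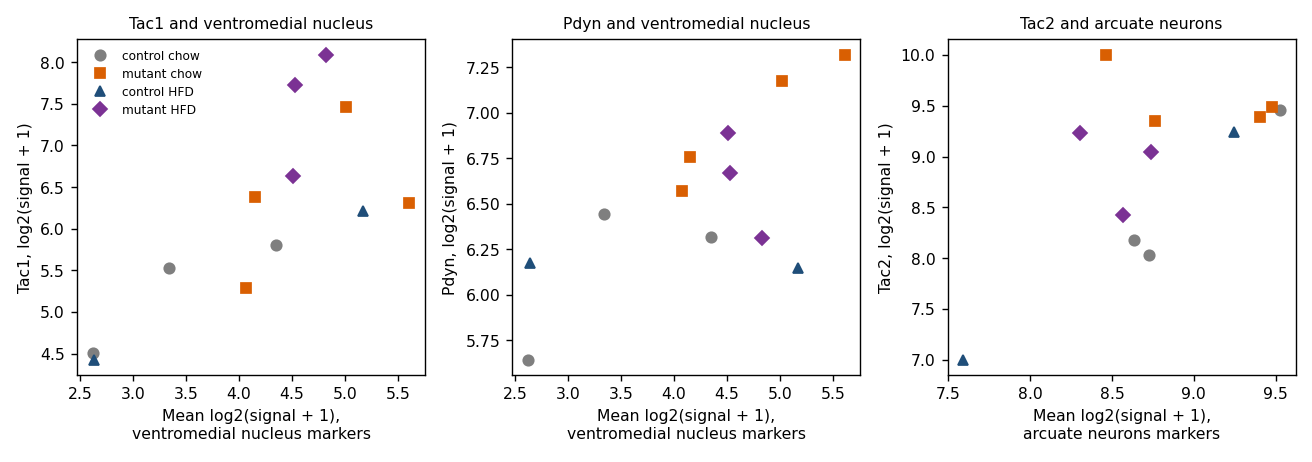
log2(signal + 1) of Tac1 (left) and Pdyn (middle) against the mean log2(signal + 1) of the 4 ventromedial nucleus markers, and of Tac2 (right) against that of the 6 arcuate neuron markers, in the 12 libraries. Control chow replicate 3 and control HFD replicate 2 form the low end on the left, and control HFD replicate 1, at 7.59, stands alone at the low end on the right.

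On HFD the largest genotype difference among the members was in Tac1. The 2 control libraries read 73.3 and 20.5, and the 3 labelled mutant read 272, 210 and 98.0. Each labelled mutant value lay above both controls, and the means of 46.9 ± 37.3 (SD, n = 2) and 193 ± 88.0 (SD, n = 3) gave a ratio of 4.12. The log2 fold change was 2.16 ± 0.65 (SE, limma, unadjusted p = 0.0060, adjusted p = 1) and did not pass the threshold. It was 1.27 without control HFD replicate 2 and 3.05 without control HFD replicate 1, fits in which the lone control HFD library is assumed to vary like the other groups. With the ventromedial markers as a covariate it was 1.65 (limma, unadjusted p = 0.0071). Avp and Oxt, markers of magnocellular neurons of the paraventricular and supraoptic nuclei, also did not overlap between these groups. They were 2 of the 3 tested markers of this list, against the background of 7.27%. The third, Otp, went the other way, with a mean of 137 in controls and 123 in the libraries labelled mutant. Avp was 195 and 236 in controls and 677, 2553 and 1926 in the libraries labelled mutant. With the magnocellular marker mean as a covariate, also chosen after seeing the data, the Tac1 difference was 2.94 (limma, unadjusted p = 0.00082). That marker mean was 7.12 and 7.95 in controls and 8.63, 9.41 and 9.28 in the libraries labelled mutant, without overlap. The covariate thus follows the group labels on HFD, and the fit cannot separate the 2.

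Pdyn on HFD was 70.0 and 71.2 in controls and 78.3, 101 and 118 in the libraries labelled mutant, which again lay above both controls. The log2 fold change was 0.46 ± 0.28 (SE, limma, unadjusted p = 0.128, adjusted p = 1). Pdyn and Tac1 were thus 2 of 5 genes whose groups did not overlap with mutants higher, against a background of 7.27% of genes in this comparison of 2 with 3 libraries. By unadjusted p under 0.05, 1 of 5 was called (Tac1), against a background of 2.21%, and 0 of 5 after adjustment, against 0.00633%. Tac2 was 127 and 605 in controls and 529, 601 and 344 in the libraries labelled mutant, with overlap. Its log2 fold change of 0.78 ± 0.56 (SE, limma, unadjusted p = 0.187) was -0.34 without control HFD replicate 1 and 1.90 without control HFD replicate 2. With these libraries its direction on HFD depends on a single control.

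The receptor genes again overlapped between the genotypes on HFD. Tacr3 was 7.84 and 6.99 in controls and 7.08, 10.9 and 7.68 in the libraries labelled mutant. The fitted difference was 0.17 ± 0.52 on the log2 scale (SE, 95% interval -0.96 to 1.29, limma), and -0.005 without mutant HFD replicate 2. Tacr1 was 6.99 and 4.22 in controls and 4.71, 7.12 and 3.82 in the libraries labelled mutant. The fitted difference was -0.09 ± 0.45 on the log2 scale (SE, 95% interval -1.08 to 0.90, limma). It was 0.22 without control HFD replicate 1, 0.08 without mutant HFD replicate 3 and 0.03 with limma array weights.

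**Figure D4:**
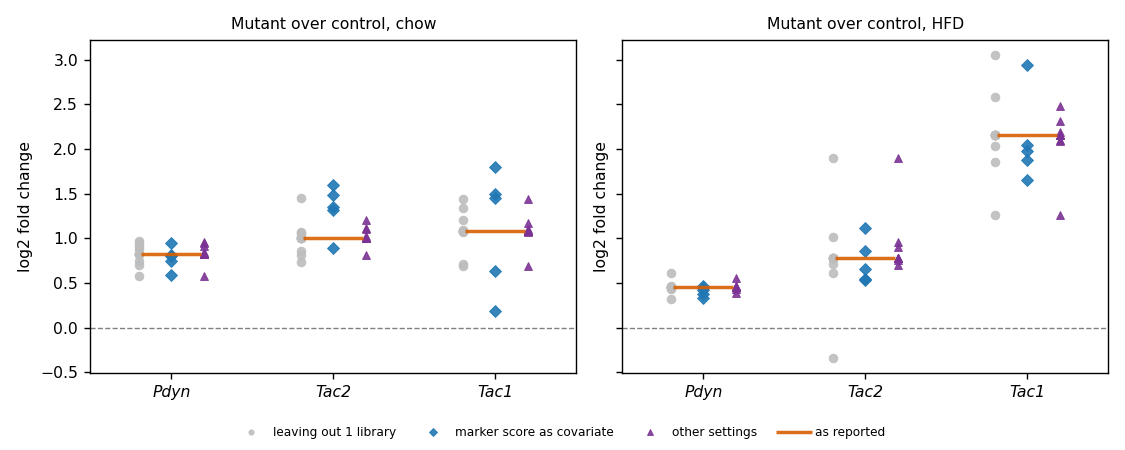
log2 fold changes of Pdyn, Tac2 and Tac1 between the genotypes (vertical axis) on chow (left) and HFD (right) as reported (orange bars), in fits that each left out 1 library (grey circles), with a marker mean as covariate (blue diamonds) and under other settings (purple triangles). Pdyn lay between 0.58 and 0.98 on chow, Tac1 between 0.18 and 1.80 on chow and between 1.27 and 3.05 on HFD, and Tac2 on HFD between -0.34 and 1.90.

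Between the diets in mutants, the fitted means of Tac2 and Pdyn were lower on HFD and those of Tac1 and both receptors were higher, but 0 of 5 passed the adjusted threshold (limma), against a background of 0.019%. Esr1 was 1.65 to 6.05 in mutant chow and 10.7 to 16.6 in the libraries labelled mutant HFD. A difference between these groups may thus hold more than diet, and this was not tested. Tac2 went from 653 to 1026 in mutant chow to between 344 and 601 in the libraries labelled mutant HFD, without overlap, and was the 1 of 5 genes to do so downward, against a background of 4.88%. The fitted log2 change was -0.66 ± 0.47 (SE, limma, unadjusted p = 0.186, adjusted p = 0.924), and -0.42 without mutant HFD replicate 3. Pdyn fitted -0.33 ± 0.24 (SE, limma, unadjusted p = 0.184) with overlapping groups, and -0.21 without mutant chow replicate 2 or -0.18 without mutant HFD replicate 1. The mean of the arcuate markers moved the same way as Tac2, with 6 of 6 lower on HFD and a median log2 fold change of -0.38. Such a fall was not particular to arcuate markers. Magnocellular and lateral hypothalamus markers were higher on HFD, 3 of 3 tested and 2 of 2. Lower fitted means held for 4 of 4 oligodendrocyte (median -0.66), 3 of 3 tanycyte (median -0.45) and 3 of 3 endothelium markers (median -0.19). The microglia markers were also lower on HFD, 4 of 4, and 2 of 4 (Tmem119, Csf1r) had an unadjusted p under 0.05 by limma, against the background of 5.37%, and no overlap, against 4.88%.

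Tac1 in mutants was 2.07 times its chow mean on HFD. The fitted log2 change was 1.12 ± 0.55 (SE, limma, unadjusted p = 0.062, adjusted p = 0.916). Tacr3 had a log2 fold change of 0.96 ± 0.43 (SE, limma, unadjusted p = 0.047, adjusted p = 0.916) and was the 1 of 5 genes with an unadjusted p under 0.05, against a background of 5.37%. Without mutant chow replicate 3, its lowest library, the value was 0.54 (limma, unadjusted p = 0.116). With the microglia marker mean as a covariate it was 0.16 for Tacr3 and 0.54 for Tac1 (limma, unadjusted p = 0.712 and 0.436). Tacr1 had 0.51 ± 0.38 (SE, limma, unadjusted p = 0.207). The 4 general neuron markers (Snap25, Syt1, Rbfox3, Stmn2) had a higher fitted mean on HFD as well, 4 of 4, with a median log2 fold change of 0.27.

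In controls the diet comparison rested on 2 HFD libraries. Tacr3 was the 1 of 5 genes without overlap, higher on HFD, against a background of 6.32%. It was 4.17 to 5.82 on chow and 6.99 to 7.84 on HFD, and the fitted log2 change was 0.49 ± 0.52 (SE, limma, unadjusted p = 0.359). Tacr1 had the largest fitted change, 0.81 ± 0.45 (SE, limma, unadjusted p = 0.101), with overlap. It was 0.36 without control chow replicate 3 and 0.50 without control HFD replicate 1. Pdyn (0.03 ± 0.28) and Tac1 (0.04 ± 0.65) had log2 fold changes (SE, limma) near 0, with intervals of -0.59 to 0.64 and -1.38 to 1.46. Tac2 had -0.43 ± 0.56, and the 2 control HFD values, 127 and 605, lay on either side of 2 of the 3 chow values. By adjusted p 0 of 5 were called, against a background of 0%, and by unadjusted p 0 of 5, against 3.54%.

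Averaged over the 2 diets, a comparison added after seeing the data, the precursors had higher fitted means in the libraries labelled mutant and the receptors differed by less than their standard errors. The log2 difference was 1.62 ± 0.43 (SE, limma, unadjusted p = 0.0024) for Tac1, 0.64 ± 0.18 (SE, limma, unadjusted p = 0.0044) for Pdyn and 0.89 ± 0.36 (SE, limma, unadjusted p = 0.030) for Tac2. These were 3 of 5 genes with an unadjusted p under 0.05, against a background of 2.85%, and 0 of 5 passed after adjustment, against 0.00633%. The value of Tac2 was 0.33 without control HFD replicate 1 (limma, unadjusted p = 0.291) and 1.45 without control HFD replicate 2, and its unadjusted p rose above 0.05 in 6 of the 12 fits that left out 1 library. Tacr3 had -0.07 ± 0.34 and Tacr1 0.06 ± 0.30. For Pdyn and for Tac1, 6 of 7 libraries labelled mutant lay above all 5 controls, and for Tac2 2 of 7. Avp was also above all controls in 6 of 7. The share of all genes with such counts was not computed, so they only describe these genes. The 7 libraries include those labelled mutant HFD, in which Esr1 was 10.7 to 16.6 and overlapped the controls. With the ventromedial marker mean as a covariate the difference was 0.92 for Tac1, 0.46 for Pdyn and 1.35 for Tac2 (limma, unadjusted p = 0.032, 0.048 and 0.0045). With the magnocellular marker mean it was 2.19 for Tac1, 0.61 for Pdyn and 0.71 for Tac2 (limma, unadjusted p = 0.00037, 0.022 and 0.140).

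The genotype by diet interaction called 0 of 5 genes by adjusted p, against a background of 0%, and 0 of 5 by unadjusted p, against 3.44%. The effects of genotype on the 2 diets were therefore not shown to differ for any member. The largest interaction was that of Tac1, a log2 value of 1.08 ± 0.85 (SE, limma, unadjusted p = 0.228). It was 0.19 without control HFD replicate 2 (limma, unadjusted p = 0.839) and 1.97 without control HFD replicate 1 (limma, unadjusted p = 0.049).

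The ratio of Tac2 to Pdyn signal was taken in each library. In bulk tissue it also holds Pdyn from other cells, such as those of the ventromedial nucleus. It therefore cannot show the proportion of these peptide genes within KNDy neurons. The ratio was 3.30, 8.13 and 5.90 in control chow and 7.14, 4.11, 6.25 and 7.62 in mutant chow. It was 1.82 and 8.49 in control HFD and 6.75, 5.96 and 2.92 in the group labelled mutant HFD. The 4 groups overlapped, and the control HFD libraries held both the lowest and the highest ratio. On chow the log2 ratio averaged 2.42 ± 0.66 for control libraries (SD, n = 3) and 2.60 ± 0.40 for mutant libraries (SD, n = 4), a difference of 0.18 (exact permutation test, two-sided, p = 0.629, adjusted p = 0.80 over 4 comparisons). With 3 against 4 libraries the smallest p that this test allows is 0.057, and with 2 against 3 it is 0.20, so no comparison could reach 0.05. The differences were -0.32 between the diets in mutants (exact permutation p = 0.40), 0.32 between the genotypes on HFD (exact permutation p = 0.80) and -0.46 between the diets in controls (exact permutation p = 0.80).

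**Figure D5:**
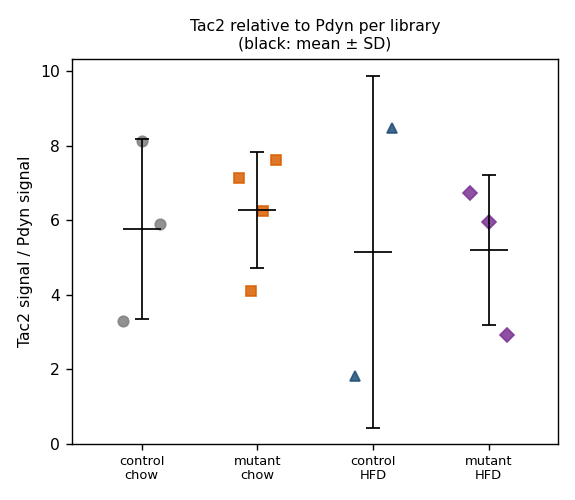
Tac2 signal divided by Pdyn signal in each library (vertical axis, linear from 0) in the 4 groups, with black bars for mean ± SD. The groups overlap, and the 2 control HFD libraries, at 1.82 and 8.49, span the whole range.

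Members were also compared with one another over the 12 libraries. Among the 15 pairs of the 5 genes and Esr1, 0 had an adjusted permutation p under 0.05. Tac2 and Pdyn had r = 0.57 (permutation p = 0.057, adjusted p = 0.180) and rho = 0.58 (permutation p = 0.052, adjusted p = 0.196), and r was 0.54 without the 2 libraries farthest from the median of Pdyn. After subtracting group means r was 0.16, so little of this relation was within groups. Tacr3 and Tacr1 had r = 0.60 (permutation p = 0.059, adjusted p = 0.180) and rho = 0.69 (permutation p = 0.016, adjusted p = 0.124), with r = 0.54 without 2 libraries and 0.44 after subtracting group means. Esr1 itself differs between the groups, so a pooled relation with it repeats in part the comparison of groups. With Esr1, Pdyn had r = -0.60 (permutation p = 0.040, adjusted p = 0.180) and rho = -0.65 (permutation p = 0.026, adjusted p = 0.129), with r = -0.45 without 2 libraries. Tac2 had r = -0.55 (permutation p = 0.060, adjusted p = 0.180) and rho = -0.69 (permutation p = 0.017, adjusted p = 0.124), with r = -0.53 without 2 libraries. Tacr3 had r = 0.62 (permutation p = 0.026, adjusted p = 0.180) and rho = 0.35 (permutation p = 0.266, adjusted p = 0.460), with r = 0.37 without 2 libraries. After subtracting group means r with Esr1 was 0.10 for Pdyn, 0.02 for Tac2, 0.17 for Tac1, 0.51 for Tacr3 and -0.22 for Tacr1.

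By Pearson's r over the 12 libraries, among genes tested with a mean of at least 5, the genes most like Pdyn were Lbhd2 (r = 0.86), Proca1 (0.78) and Selplg (0.77). Those most like Tac2 were Pdlim7 (0.90), the predicted gene Gm28040 (0.88) and Smg5 (0.87). For Tac1 they were Abhd17b (0.82), Fezf1 (0.81) and Mmd (0.80), and Fezf1 is one of the ventromedial markers above. For Tacr3 they were Sephs2 (0.93), Ccdc112 (0.90) and Ppil3 (0.90), and for Tacr1 Ppp1r2 (0.89), Smad9 (0.89) and Dync1i1 (0.87). Each is the top of about 12145 genes, so such values describe these libraries only.

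The rest of the pathway held 7 genes, of which 5 had a row and 4 were tested. By adjusted p 0 of the 4 were called in any comparison (limma). Oprk1, the dynorphin receptor gene, ranged from 2.96 to 12.95 over all libraries and overlapped between the groups in every comparison, with a log2 fold change on chow of -0.43 ± 0.45 (SE, limma, unadjusted p = 0.359). Its signal exceeded that of Tacr3 in 9 of 12 libraries. Tacr2, the neurokinin A receptor gene, was listed at 0 in 8 of 12 libraries and was below the filter. Kiss1r, the kisspeptin receptor gene, ranged from 2.92 to 5.80. On HFD it was 4.06 and 5.80 in controls and 3.34, 3.50 and 3.11 in the libraries labelled mutant, lower without overlap, against a background of 8.46%, with a fitted log2 difference of -0.44 ± 0.32 (SE, limma, unadjusted p = 0.195). Gnrhr ranged from 0 to 8.25.

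Gnrh1, which encodes gonadotropin-releasing hormone and whose neurons are the best-known target of KNDy signalling, had the largest differences of these 4 genes. It was 61.7, 108 and 95.9 in control chow, 40.8, 27.7, 59.0 and 126 in mutant chow, 40.6 and 30.9 in control HFD and 152, 55.8 and 174 in the libraries labelled mutant HFD. On chow the groups overlapped, whereas on HFD each labelled mutant value lay above both controls, against the background of 7.27%. Both control HFD values also lay below all control chow values, against a background of 7.76%, and the diet difference in controls was -1.26 ± 0.57 (SE, limma, unadjusted p = 0.047, adjusted p = 0.998), so the controls on HFD enter both differences. The log2 fold change on HFD was 1.66 ± 0.57 (SE, limma, unadjusted p = 0.013, adjusted p = 1) and the interaction was 2.32 ± 0.74 (SE, limma, unadjusted p = 0.0085, adjusted p = 0.999). Most Gnrh1 neurons in mice lie in the preoptic area, outside the ARC.

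Among 7 regulators and hormone receptors expressed with KNDy peptides (Nr5a2, Sox14, Nhlh2, Tbx3, Pgr, Esr1, Prlr), 0 were called by adjusted p in any comparison (limma). On chow 2 of 7 had a lower fitted mean in mutants at an unadjusted p under 0.05 (limma), against the background of 4.34%. They were Esr1 and Nhlh2, a transcription factor of hypothalamic neurons. Esr1 is the deleted gene, so its place in this count follows from the design. Nhlh2 was 0.83 in mutant chow replicate 3, the library with 1768 genes at 0, and 3.42, 5.24 and 6.85 in the other mutant chow libraries. Nhlh2 had a log2 fold change of -1.02 ± 0.46 (SE, limma, unadjusted p = 0.048) on chow and of 1.79 ± 0.46 (SE, limma, unadjusted p = 0.0021) between the diets in mutants, the latter without overlap. Between the diets in mutants Esr1 was also higher in the libraries labelled HFD without overlap, with a log2 fold change of 1.84 ± 0.41 and an unadjusted p of 0.00066 by limma. Esr1 is the deleted gene, so this value is not read here as an effect of diet, and its cause was not tested. Tbx3, a transcription factor of the ventral hypothalamus, fitted -0.61 ± 0.25 (SE, limma, unadjusted p = 0.031) with overlap. These were 3 of 7 by unadjusted p, against the background of 5.37%, and 2 of 7 without overlap upward, against 3.11%, with Esr1 in both counts. Pgr, a classical oestrogen target that encodes the progesterone receptor, was 8.41 ± 2.47 (SD, n = 3) in control chow and 6.88 ± 1.18 (SD, n = 4) in mutant chow. Of the 4 oestrogen-responsive genes tested (Pgr, Greb1, Nrip1, Gper1), 0 had an unadjusted p under 0.05 in any comparison, with a median log2 fold change on chow of -0.10.

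Genes of prohormone processing (Pcsk1, Pcsk2, Cpe, Pam, Scg5, Pcsk1n) had smaller fitted genotype differences than the 3 precursor genes on either diet. Their size was 0.36 at most (Pcsk1 on chow). On chow 4 of 6 had a higher and 2 of 6 a lower fitted mean in mutants, with a median log2 fold change of 0.08 and 0 of 6 with an unadjusted p under 0.05. Pcsk1 was the 1 of 6 without overlap with mutants higher, against the background of 2.54%. It ran from 31.7 to 34.8 in control chow and from 34.9 to 53.2 in mutant chow. On HFD the median was -0.002. The 12 genes of signalling below the receptors and of tachykinin breakdown, among them Gnaq, Plcb1, Gnao1 and the peptidase gene Mme, had 0 of 12 with an unadjusted p under 0.05 in any comparison, with a median of 0.16 on chow and 0.02 on HFD. Over all genes tested the median was 0.01 on chow and -0.01 on HFD.

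The start regions of the members were searched for short motifs because Esr1 encodes a transcription factor that binds DNA. Windows from 250 bases before to 50 bases after the start, taken from RefSeq on GRCm38.p6, were matched for 5 of 5 genes, with 6 windows in all because Pdyn has a second start. The oestrogen response half-site GGTCA, searched on both strands, was in 0 of the 6 windows and in 40.5% of 32851 promoters of the same length. The half-site of the cAMP response element, TGACG, also searched on both strands, was in the windows of Tac1, Tacr3 and Tacr1 and in 20.8% of promoters. A match describes these letters only, and a window without one says nothing of binding elsewhere.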

How the data were processed

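Members and gene lists were chosen with earlier results of these data known. Reads had been assigned by the authors to mouse transcripts of build mm10 by Kallisto, run in gene mode, and tested by Sleuth. The deposited values are an abundance signal per gene, normalised for length and depth. How it was scaled between libraries, whether strand was used and the software versions are not given in the sources used here, and no depth or counting error can be stated.

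Every column was matched to its sample by name, and 0 were left unmapped. No pair of libraries was identical. Values were transformed as log2(value + 1), which understates changes of low genes. Genes with a value of at least 1 in at least 2 libraries were kept (15801). limma 3.58.1 in R 4.3.3, with a mean-variance trend, was fitted to the 12 libraries together with 4 group means. Two-sided p-values were adjusted over the whole tested table (Benjamini-Hochberg, threshold 0.05). Ratios were compared by exact permutation and correlations by 100000 permutations (scipy 1.17.1). Each marker mean averages log2(value + 1) over its list. For each member the 3 genes with the highest correlation were named. The fit was tested on simulated data. The library labels give no batch. A gene of the regulator list and a sequence stretch are not reported here. Alternatives changed scaling, trend, filter, pseudocount, covariates, weights and libraries.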

Additional observations from a re-analysis of the deposited data

Results flagged for a closer look

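Tac2 in mutant chow was set apart by a lone library. Replicate 1 read 1026 while the other 3 read 653, 670 and 716, so its gap to the nearest took up 0.831 of the spread from lowest to highest. Of 15 measures tested in this way, 1 stood out, where chance gives about 1 in 20. Without this library the log2 fold change of Tac2 on chow was 0.86 in place of 1.01.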

How the results depend on the processing

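The sample titles carry no replicate numbers, but each column name holds a number within its group. Deviations from the group means were correlated between libraries of different groups. The median correlation was 0.0037 for pairs with the same number and 0.0045 for pairs with other numbers. Of the 15 pairs with the same number, which ran from -0.18 to 0.31, 3 were over 0.1. By these medians the numbers were not taken as a pairing. With this number as a replicate block, added after seeing the data, 0 of 5 members passed the adjusted threshold in any comparison. By unadjusted p the block gave 3 of 5 on chow in place of 1, 2 in place of 1 between the diets in mutants and 1 in place of 0 for the interaction. Signs turned under the block for Tacr1 on HFD (0.15) and in the interaction (0.014), for Pdyn (-0.065) and Tac1 (-0.28) between the diets in controls and for Tacr3 averaged over the diets (0.033). The count of members past the adjusted threshold was 0 of 5 in every comparison and alternative. Of 794 alternative log2 fold changes of single members, 750 kept their sign and 44 changed it, and 0 of 794 passed the adjusted threshold. The cause of the changes was not tested. With the neuron marker mean as covariate the diet difference in controls was -0.11 for Pdyn, 0.14 for Tac2 and -0.75 for Tac1, and the genotype difference averaged over the diets was -0.039 for Tacr1. With the ventromedial marker mean, chosen after seeing the data, Tacr1 was -0.18 on chow and -0.25 averaged over the diets, and the diet difference in controls was -0.058 for Pdyn and -0.29 for Tac1. With the magnocellular marker mean, also chosen afterwards, Tacr3 averaged over the diets was 0.14. With the microglia marker mean, chosen afterwards, Tacr3 was 0.69 on chow, -0.079 on HFD, -0.77 in the interaction and 0.31 averaged over the diets. Leaving out the 2 libraries with Fezf1 under 1, chosen afterwards, gave -0.23 for Tacr1 on chow, -0.23 for Pdyn between the diets in controls, 1.08 for the interaction of Tac2 and -0.31 for Tacr1 averaged over the diets. limma array weights gave 0.033 for Tacr1 on HFD and 0.086 for Tacr3 averaged over the diets.

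Over fits that each left out 1 library, the genotype difference on chow ranged from -0.64 to 0.12 for Tacr3 and from -0.23 to 0.47 for Tacr1. On HFD it ranged from -0.34 to 1.90 for Tac2, from -0.005 to 0.28 for Tacr3 and from -0.40 to 0.22 for Tacr1. The diet difference in controls ranged from -0.22 to 0.18 for Pdyn, from -1.55 to 0.69 for Tac2 and from -0.85 to 0.93 for Tac1. The interaction ranged from -1.34 to 0.90 for Tac2 and from -0.61 to 0.14 for Tacr1, and the average over the diets from -0.24 to 0.14 for Tacr3 and from -0.16 to 0.22 for Tacr1. The log2 ratio of Tac2 to Pdyn differed by -0.17 to 0.48 between the genotypes on chow, by -0.55 to 0.050 between the diets in mutants, by -0.79 to 1.43 between the genotypes on HFD and by -1.57 to 0.65 between the diets in controls. Where 1 control HFD library was left, the ratio has no test. A pseudocount of 0.1, rescaled columns, quantile normalisation, a fit with no trend, no filter, a mean of at least 5 and only the groups compared changed no sign. Tacr1 has no value under a mean of at least 5. Depth is unknown, so how far it limits the receptors, at a signal of 1.00 to 10.9, cannot be stated.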
